A study of Mus musculus with 6 samples.

Results

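Polyadenylated RNA of B16-OVA cells, mouse melanoma cells with an added gene for the model antigen ovalbumin, was read here for 10 genes that write, read or remove ubiquitin in the NF-kappaB pathway or act beside the proteins that do. The genes were taken by symbol from the deposited count table: Tnfaip3, Cyld, Tnip1, Tnip2, Tnip3, Traf1, Traf2, Birc2, Birc3 and Ikbke. All 10 were among the 56734 symbols of the table, and all 10 passed the filter on low counts that left 17718 genes to test. The groups were 3 libraries of WT cells and 3 of Ythdf2-KO cells, in which Ythdf2 was knocked out; it encodes an mRNA-binding protein that recognises the RNA mark m6A (N6-methyladenosine) and is known to speed the decay of marked mRNAs. Both were grown in DMEM with 10% FBS, with no further treatment named, and both carry the ovalbumin transgene. The WT titles carry the tag gNC and the Ythdf2-KO titles gY2, and whether a group is 1 clone or a pool, and whether its replicates were separate cultures, is not given in the sources used here.

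In NF-kappaB signalling, receptors such as the TNF receptor gather adapters and ubiquitin ligases, which build ubiquitin chains that recruit and switch on the IKK kinases. The kinases then release NF-kappaB from its IkappaB inhibitors. A20, the product of Tnfaip3, and the deubiquitinase CYLD take such chains apart or replace them, and A20 is itself a classic NF-kappaB target, so it closes a feedback loop. In melanoma cells, as in other tumor cells, the pathway is known for driving chemokine and survival genes.

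The libraries held 55660473 to 69497273 counts, so that a floor of 3 counts equalled 0.0433 to 0.0540 CPM (counts scaled to library size). Ythdf2 mRNA itself stood at 124, 124 and 125 CPM in the WT libraries, against 100.1, 101 and 104 CPM in the Ythdf2-KO libraries. Counts per gene do not show the edit or the protein. Of 5 genes used as signs of RNA quality, the 3 mitochondrially encoded mRNAs and Malat1 were higher in Ythdf2-KO. Of all tested genes, 24.1% were higher (adjusted p under 0.05). Neat1 overlapped between the genotypes, with a mean of 64.0 ± 7.85 CPM over the WT libraries and 60.5 ± 6.62 CPM over those of Ythdf2-KO (SD, n = 3). The summed level of the 5 was 7751 to 9407 CPM in WT and 11411 to 13024 CPM in Ythdf2-KO. Their part in the results below was not tested.

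As a view of the DNA in front of the genes, the promoter windows of RefSeq (build GRCm38.p6, 250 bases before to 50 after an annotated start) were searched on both strands for the 10-base NF-kappaB consensus motif. Windows were found for all 10 genes. A match lay in a window of 4 of the 10, against 9.55% of all 27025 symbols and 8.46% of all 32851 windows. The 4 genes were Tnfaip3, Tnip1, Tnip3 and Cyld; of these, Tnfaip3, Tnip1 and Tnip3 were clearly lower in Ythdf2-KO, whereas Cyld differed 1.07-fold, as described below. The 160 bases before the start are shown for these 4, read along the gene's strand, with every base of a match in capitals. They are chr10:19015411-19015570 (minus strand), chr11:54962941-54963100 (minus strand), chr6:65590238-65590397 (plus strand) and chr8:88696868-88697027 (plus strand).
Tnfaip3: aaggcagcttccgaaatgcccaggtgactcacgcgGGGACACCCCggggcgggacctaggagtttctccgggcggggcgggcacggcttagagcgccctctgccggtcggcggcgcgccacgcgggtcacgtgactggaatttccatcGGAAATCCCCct
Tnip1: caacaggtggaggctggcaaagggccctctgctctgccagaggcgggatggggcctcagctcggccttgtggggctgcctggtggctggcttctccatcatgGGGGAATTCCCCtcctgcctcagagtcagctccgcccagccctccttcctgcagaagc
Tnip3: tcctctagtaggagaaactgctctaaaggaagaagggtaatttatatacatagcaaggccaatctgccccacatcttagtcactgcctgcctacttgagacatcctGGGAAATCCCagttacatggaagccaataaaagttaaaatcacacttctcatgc
Cyld: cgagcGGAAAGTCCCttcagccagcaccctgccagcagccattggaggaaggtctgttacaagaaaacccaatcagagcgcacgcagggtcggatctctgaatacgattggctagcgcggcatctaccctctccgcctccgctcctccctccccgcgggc
Tnfaip3 held 2 separate matches, GGGACACCCC from -125 to -116 and one ending 3 bases before the start. Read on the strand opposite to the gene, the second was GGGGATTTCC. In Tnip1, overlapping matches on both strands filled bases -58 to -47, and Tnip3 had GGGAAATCCC from -54 to -45. The match of Cyld, GGGACTTTCC on the opposite strand, lay further out, from -155 to -146. No match was found in the windows of Tnip2, Traf1, Traf2, Birc2, Birc3 or Ikbke, which says only that these letters are not in these windows. Among these genes without a match, Birc3, Traf1 and Ikbke were also clearly lower in Ythdf2-KO, by 2.42-, 2.16- and 1.89-fold. A link between a match and a fall was not tested. A match is a description of the sequence, and binding was not measured.

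The comparison of the genotypes asks which mRNAs differ between cells labelled as knockouts of the m6A reader and WT cells. Of the 10 genes, 9 were lower in Ythdf2-KO and none was higher (edgeR's quasi-likelihood test, adjusted p under 0.05 over all genes tested), where 25.8% of all tested genes were lower and 49.9% differed in either direction. At an unadjusted p under 0.05 none was higher either, nor was any called higher by DESeq2 or limma-voom. The falls were very unequal: Tnip3, Tnfaip3, Birc3 and Traf1 were called and at least 2-fold lower, as were 3.38% of tested genes. In either direction, 9.13% of tested genes differed by more than Traf1. Ikbke and Tnip1 lost a little less than Traf1. Birc2 fell by less again, 1.28-fold, and Traf2 and Cyld moved little. The median log2 fold change was -0.89, also with Tnip3 set to its bound, beside -0.0053 over all genes tested. In 9 of the 10, every Ythdf2-KO library lay below every WT library; 55.9% of tested genes had no overlap between the genotypes in one direction or the other. Fewer cells with a transcript and less of it per cell cannot be told apart in such bulk RNA.

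**Figure D1:**
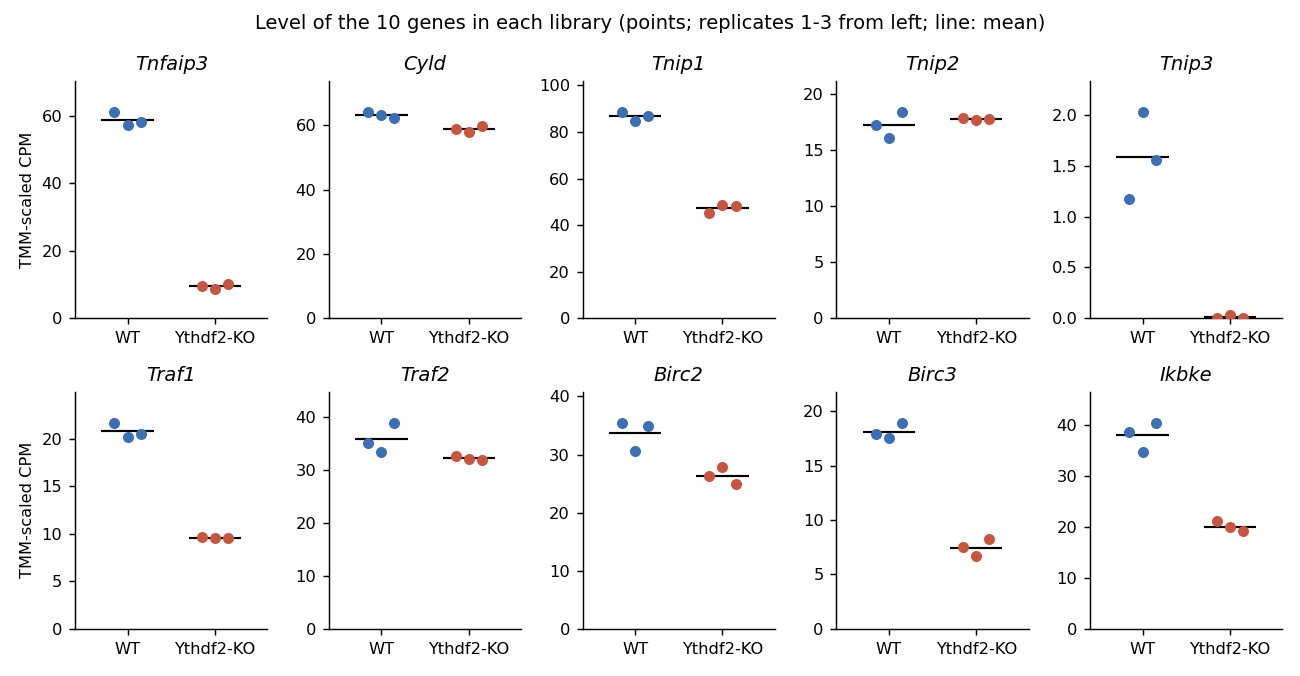
TMM-scaled CPM of each gene (vertical axes, each from 0) in the 3 WT and 3 Ythdf2-KO libraries; points are libraries and lines are means. Tnip2 is the gene whose groups overlap, and Tnip3 reaches 0 in 2 Ythdf2-KO libraries.

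Tnfaip3 encodes A20, a ubiquitin-editing enzyme that restrains TNF and Toll-like receptor signals. It stood at 61.2, 57.2 and 58.2 CPM in the WT libraries (replicates 1 to 3, as throughout), against 9.51, 8.76 and 10.2 CPM in the Ythdf2-KO libraries. The groups were far apart and tight within themselves. The log2 difference (Ythdf2-KO over WT) was -2.63 ± 0.050 (SE; n = 3 per genotype; edgeR adjusted p = 7.70e-38), a 6.19-fold fall, and 1.94% of tested genes differed by more in either direction.

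Cyld encodes the other deubiquitinase of the group, which trims chains on adapters and is best known as a tumor suppressor of skin appendages. Its levels were 64.1, 63.3 and 62.3 CPM in the WT libraries, against 59.0, 58.0 and 59.7 CPM in the Ythdf2-KO libraries. All 3 Ythdf2-KO libraries were lower, but by little: its log2 fold change came to -0.10 ± 0.033 (SE; n = 3 per genotype; edgeR adjusted p = 0.00846), a 1.07-fold fall. It was no longer called under upper-quartile scaling (edgeR adjusted p = 0.221), with no filter on low counts (0.0632) and without WT replicate 1 (0.0567), the range over all alternatives being 0.00846 to 0.221. Tnfaip3 and Cyld had nearly equal counts in WT, with a log2 ratio of -0.068, -0.15 and -0.099 in replicates 1 to 3, and in Ythdf2-KO the ratio was -2.63, -2.73 and -2.55.

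Tnip1, Tnip2 and Tnip3 encode the ABIN proteins, adapters that bind ubiquitin chains and A20. Tnip1 (ABIN-1) was at 88.6, 84.5 and 87.0 CPM in the WT libraries, against 45.4, 48.7 and 48.3 CPM in the Ythdf2-KO libraries. Its log2 fold change was -0.87 ± 0.034 (SE; n = 3 per genotype; edgeR adjusted p = 5.17e-26), a 1.83-fold fall with a wide gap between the groups. Tnip2 (ABIN-2), which also stabilises the kinase TPL2, did not follow. It was at 17.3, 16.1 and 18.4 CPM in the WT libraries, against 17.9, 17.7 and 17.8 CPM in the Ythdf2-KO libraries, so that the Ythdf2-KO libraries lay inside the WT range. The log2 difference of 0.044 had a 95% interval of -0.079 to 0.17 (edgeR adjusted p = 0.591), which leaves room for a small change in either direction.

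Tnip3 (ABIN-3), the family member best known as a gene induced by bacterial lipopolysaccharide, was the scarcest of the 10. It had 65, 133 and 107 counts in WT replicates 1 to 3, or 1.17, 2.03 and 1.56 CPM, and 0, 2 and 0 counts in Ythdf2-KO. The WT libraries spread more widely than for any other of the 10 genes, with a coefficient of variation of 27.2%. The ratio of WT to Ythdf2-KO over summed counts was 160 (95% counting interval 44.0 to 1330), an interval for counting error alone, with counts taken as independent. Both Ythdf2-KO counts lay in replicate 2; without it no count was left, and Tnip3 was at least 36.2-fold lower when 3 counts per library are taken as the floor. The test over all genes called the fall (edgeR adjusted p = 6.01e-16). Whether the mates of a read pair were counted separately is not known here. Among other scarce genes, Adgre1 had even counts in every library (22, 10 and 16 in WT, 2, 2 and 4 in Ythdf2-KO). Ptprc had an odd count of 5 in WT replicate 3. If mates were counted separately, the 2 counts of Tnip3 could be 1 fragment. The counting interval would then be too narrow, and the floor would hold fewer than 3 fragments.

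Traf1 and Traf2 encode adapters that sit under TNF-family receptors and carry the cIAP ligases; Traf1, unlike Traf2, lacks a RING domain and is itself an NF-kappaB target. Traf1 was at 21.7, 20.2 and 20.5 CPM in the WT libraries, against 9.70, 9.59 and 9.53 CPM in the Ythdf2-KO libraries. Each Ythdf2-KO library was at less than 0.5 of the WT mean, with almost no spread. Its log2 fold change came to -1.11 ± 0.065 (SE; n = 3 per genotype; edgeR adjusted p = 1.89e-19), a 2.16-fold fall.

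Traf2 was at 35.0, 33.3 and 38.9 CPM in the WT libraries, against 32.6, 32.0 and 31.9 CPM in the Ythdf2-KO libraries. The groups did not overlap but came within 1 CPM of each other. Its log2 fold change came to -0.15 ± 0.047 (SE; n = 3 per genotype; edgeR adjusted p = 0.00590), a 1.11-fold fall. WT replicate 3 was the highest library, and without it the call was lost (edgeR adjusted p = 0.168), as it was without replicate 3 of both genotypes (0.243) and with upper-quartile scaling (0.0980); the range over all alternatives was 6.91e-04 to 0.243.

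Birc2 and Birc3 encode cIAP1 and cIAP2, ubiquitin ligases that modify RIPK1 and, with TRAF2, mark the kinase NIK for destruction. They are neighbours on mouse chromosome 9. Birc2 was at 35.5, 30.6 and 34.9 CPM in the WT libraries, against 26.3, 27.9 and 24.9 CPM in the Ythdf2-KO libraries, with a log2 fold change of -0.35 ± 0.052 (SE; n = 3 per genotype; edgeR adjusted p = 4.78e-07) and a 1.28-fold fall. Birc3, the one of the pair known as inducible by NF-kappaB, was at 17.9, 17.5 and 18.9 CPM in the WT libraries, against 7.52, 6.67 and 8.21 CPM in the Ythdf2-KO libraries. Its log2 fold change was -1.27 ± 0.074 (SE; n = 3 per genotype; edgeR adjusted p = 2.21e-19), a 2.42-fold fall. For both genes every Ythdf2-KO library lay below every WT library, and Birc3 fell by more. The longest coding transcripts of these paralogs share no 31-base stretch; among all 45 pairs of the 10 genes only Cyld and Birc3 share any, 1.08% of the 31-base stretches of Birc3.

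Ikbke encodes IKK-epsilon, an IKK-related kinase that is modified by cIAPs and TRAF2 and acts toward NF-kappaB and interferon genes. It was at 38.8, 34.8 and 40.6 CPM in the WT libraries, against 21.1, 20.1 and 19.2 CPM in the Ythdf2-KO libraries. The lowest WT library was still well above the highest Ythdf2-KO library. Its log2 fold change came to -0.92 ± 0.052 (SE; n = 3 per genotype; edgeR adjusted p = 2.92e-18), a 1.89-fold fall. Predicted genes Gm28913 and Gm28914 overlap exons of Ikbke on the other strand, and the strand setting of the counting is not given. They held 10 to 47 and 2 to 24 counts per library, against 1241 to 2779 for Ikbke. These counts do not show how many reads in the shared exons were left uncounted.

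**Figure D2:**
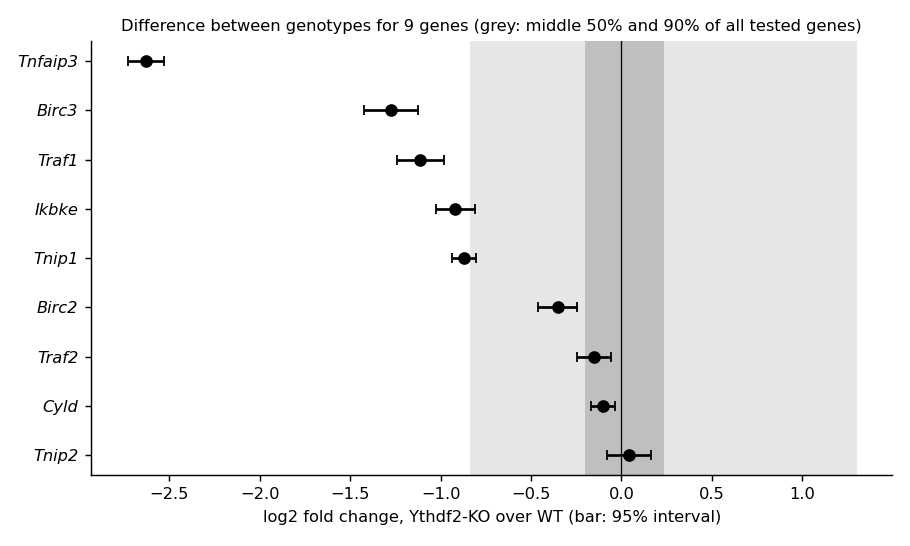
Log2 fold change of 9 genes (horizontal axis; points, with 95% intervals as bars), without Tnip3, whose fold rests on 2 counts. The middle 90% of all tested genes, from -0.83 to 1.30, is in light grey and the middle 50%, from -0.20 to 0.23, in dark grey; Tnfaip3, Birc3, Traf1, Ikbke and Tnip1 lie to the left of both.

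Ratios between related genes within a library do not depend on how libraries are scaled. The log2 ratio of Birc3 to Birc2 counts was -0.99, -0.81 and -0.88 in the WT libraries and -1.81, -2.06 and -1.60 in those of Ythdf2-KO, a difference of -0.93. That of Traf1 to Traf2 was -0.69, -0.72 and -0.92 in the WT libraries and -1.75, -1.74 and -1.74 in those of Ythdf2-KO, a difference of -0.96. In both pairs the groups were clear of each other. The log2 ratio of Tnip1 to Tnip2 was 2.36, 2.39 and 2.24 in the WT libraries and 1.34, 1.46 and 1.44 in those of Ythdf2-KO, a difference of -0.92. Ikbke was set against Tbk1, which encodes the closest relative of IKK-epsilon: the log2 ratio was -0.033, -0.12 and -0.093 in the WT libraries and -0.98, -1.01 and -1.08 in those of Ythdf2-KO, a difference of -0.94. These 4 differences were nearly the same size, whereas the ratio of Tnfaip3 to Cyld differed by -2.53. Tnip3 over Tnip1, with 0.5 added to each count, differed by -6.05, or by -4.03 with 3 added, so its size rests on that choice. For each of the 6 ratios the groups did not overlap, and the exact two-sided permutation test gave p = 0.1 (also after Benjamini-Hochberg adjustment over the 6), which is the smallest that 3 libraries against 3 can give. The ratios describe an unequal change of the 2 genes of a pair in these libraries, and do not show that either was unchanged.

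**Figure D3:**
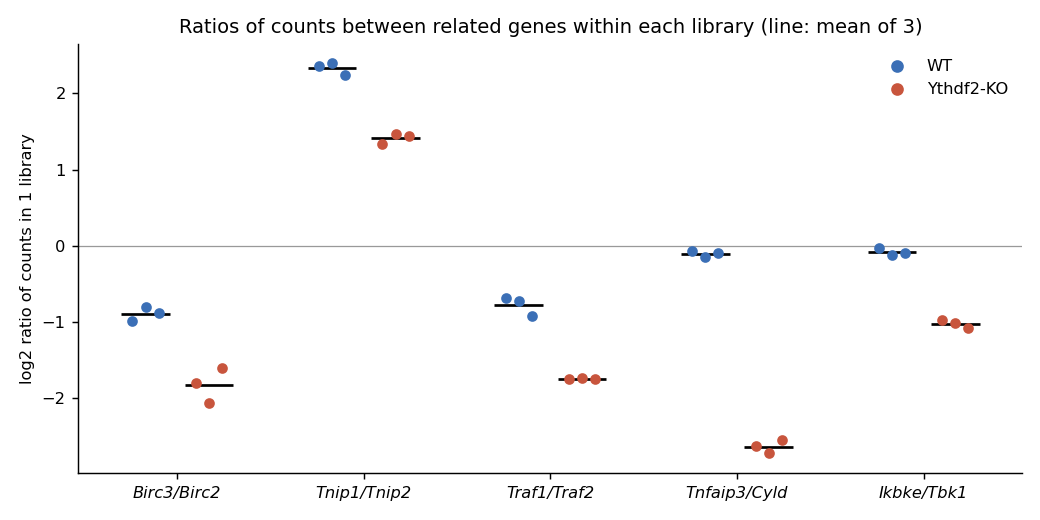
Log2 ratio of counts of 2 genes in the same library (vertical axis) for 5 of the 6 pairs, with points for the 3 WT and 3 Ythdf2-KO libraries and lines for means. Every Ythdf2-KO point lies below the WT points of its pair, by the widest margin for Tnfaip3 over Cyld.

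Levels of different genes were compared per kb of the longest coding transcript in GENCODE M21 (GRCm38), as TMM-scaled CPM per kb. In WT, Tnip1 led at 29.2 ± 0.692 (SD, n = 3), followed by Tnfaip3 at 13.3 ± 0.469, Traf2 at 11.7 ± 0.943, Ikbke at 11.7 ± 0.911 and Birc2 at 10.1 ± 0.808. Tnip2 at 8.53 ± 0.574, Cyld at 7.88 ± 0.114, Birc3 at 6.22 ± 0.258, Traf1 at 6.05 ± 0.233 and Tnip3 at 0.421 ± 0.114 came after. Traf2 and Ikbke, Tnip2 and Cyld, and Birc3 and Traf1 were neighbours whose libraries overlapped. In Ythdf2-KO, Tnip1 still led at 15.96 ± 0.608, and Traf2 (10.6), Tnip2 (8.80), Birc2 (7.91), Cyld (7.34) and Ikbke (6.19) followed. Tnfaip3, in place 2 of 10 in WT, was in place 9 in Ythdf2-KO at 2.15 ± 0.162, after Traf1 (2.80) and Birc3 (2.57). Its Ythdf2-KO libraries lay below those of Traf1 but overlapped those of Birc3, which also overlapped those of Traf1. With the union of all annotated exons as the length, Tnfaip3 went from place 2 to place 8, and places in the middle of the order changed.

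**Figure D4:**
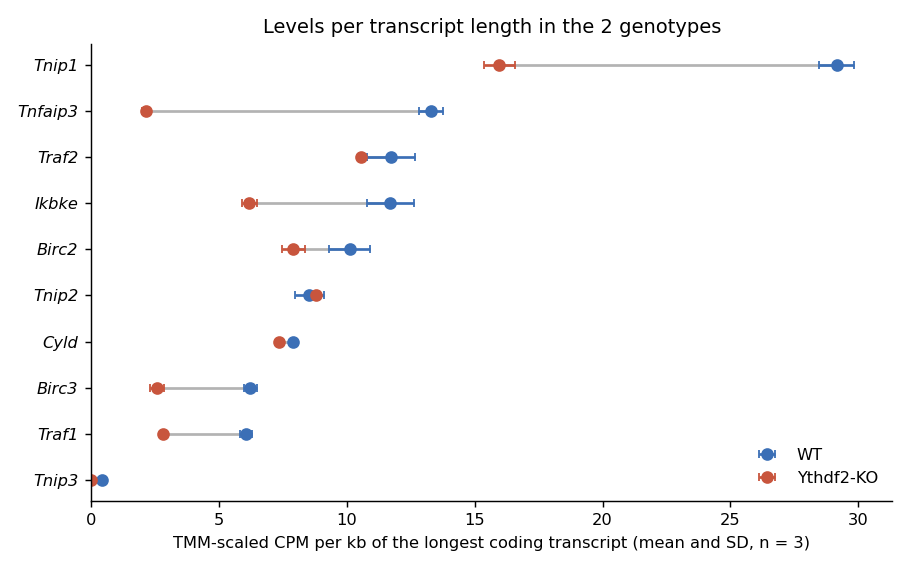
TMM-scaled CPM per kb of the longest coding transcript (horizontal axis, from 0) for each gene, as mean and SD over 3 libraries of each genotype, joined by a grey line. The line is long for Tnip1 and Tnfaip3 and short for Tnip2, Cyld and Traf2.

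Within WT, 8 of the 10 genes were lowest in replicate 2, the exceptions being Tnip3, which was highest there, and Cyld. The summed level of the 10 genes was 359 to 381 CPM in WT and 229.1 to 229.7 CPM in Ythdf2-KO. Mitochondrially encoded mt-Nd1 was also lowest in WT replicate 2, at 1093 CPM against 1203 and 1353 CPM. Without WT replicate 2, 9 of the 10 genes were still lower in Ythdf2-KO.

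YTHDF2 binds m6A, which is found mostly in a sequence context whose most common form is GGACT. This 5-base stretch was counted in the longest coding transcript of each gene, as letters and not as measured m6A. It occurred in all 10 genes and in 92.4% of 13022 tested genes with such a transcript, at a median of 1.05 per kb over those genes. Tnfaip3 held 11, or 2.49 per kb, a density above that of 95.1% of these genes. Tnip1 held 5 (1.68 per kb) and Ikbke 5 (1.54 per kb), while Birc3 held 1 (0.344 per kb), a density above that of 11.2% of these genes. Cyld also held 11, but over a longer transcript (1.37 per kb). Traf1, which like Birc3 fell by over 2-fold, held 3 (0.873 per kb). Tnip3 held 5 (1.33 per kb), Traf2 4 (1.31 per kb) and Birc2 4 (1.201 per kb). Tnip2, which was not called, held 2 (0.989 per kb). Whether this density goes with a fall was not tested.

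The other genes of the pathway were read from 4 lists drawn up by role. Of 14 partners of A20 and CYLD and of the linear-chain ligase, 9 fell and none rose (background 25.8% lower and 24.1% higher), with log2 fold changes from -0.39 to 0.10 and a median of -0.12. N4bp1, whose product binds ubiquitin and dampens NF-kappaB, had the largest fall, from 86.9 ± 0.782 to 66.0 ± 2.05 CPM (SD, n = 3; log2 fold change -0.39). Otulin, which encodes the deubiquitinase specific for linear chains, fell from 28.9 ± 0.386 to 22.6 ± 0.535 CPM, and Rnf11, which encodes a partner of A20, from 125 ± 2.99 to 103 ± 4.05 CPM. Genes of the linear-chain ligase itself did not pass: Rnf31, Rbck1 and Sharpin had log2 fold changes of -0.050, 0.052 and 0.10. With upper-quartile scaling 7 of the 14 were lower and 3 higher, namely Itch, Rbck1 and Sharpin. That scaling shifts the balance of all genes: 59.2% of calls were then higher in Ythdf2-KO, against 48.3% with TMM factors.

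Of 17 receptors, adapters and kinases upstream of the IKKs, 10 fell and 3 rose (background 25.8% lower and 24.1% higher), and the median log2 fold change was -0.13. Ripk2, which encodes the kinase under the NOD receptors, fell 3.08-fold, from 202, 199.7 and 198 CPM in the WT libraries to 65.0, 64.0 and 65.8 CPM in the Ythdf2-KO libraries. The receptor gene Cd40 fell 4.31-fold from a low level, 4.21 ± 0.237 to 0.978 ± 0.220 CPM (SD, n = 3). The 3 that rose, named after their values were seen, were Traf5, Map3k14 and Tnfrsf12a, with log2 fold changes of 0.75, 0.67 and 0.16. Map3k14 encodes NIK, the kinase that TRAF2 and the cIAPs hold down as a protein. Its mRNA rose from 6.60 ± 0.136 to 10.5 ± 0.626 CPM. The protein was not measured, and a link to the falls of Traf2, Birc2 and Birc3 was not tested.

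Of 7 genes of the IKKs other than Ikbke, TBK1 and their adapters, 2 fell and none rose, with a median log2 fold change of 0.012. A count of 2 in 7 is close to the 25.8% of all tested genes that were lower. Ikbkg, which encodes the ubiquitin-binding regulatory subunit NEMO, fell from 83.5 ± 1.73 to 63.3 ± 1.97 CPM (SD, n = 3), and Tank, which encodes an adapter of TBK1, from 40.3 ± 1.36 to 32.1 ± 0.657 CPM. Chuk, Ikbkb and Tbk1 had log2 fold changes of 0.012, -0.011 and 0.024 and did not pass, and neither did Tbkbp1, at 35.7 ± 0.164 and 37.6 ± 2.02 CPM.

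All 11 genes of NF-kappaB subunits and IkappaB-type inhibitors fell, where 25.8% of all tested genes did. Their log2 fold changes ran from -1.81 to -0.30, with a median of -0.78. Nfkbia, which encodes IkappaB-alpha, fell 3.51-fold, from 164, 168 and 165 CPM in the WT libraries to 48.2, 46.4 and 47.2 CPM in the Ythdf2-KO libraries. Bcl3, which encodes a nuclear IkappaB protein, fell 2.05-fold, from 21.8 ± 0.982 to 10.6 ± 1.42 CPM (SD, n = 3). The smallest change was that of Rela, which encodes the p65 subunit, from 88.6 ± 1.36 to 71.7 ± 0.0755 CPM. These comparisons rest on the same 6 libraries as those of the 10 genes and are no independent support for them.

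**Figure D5:**
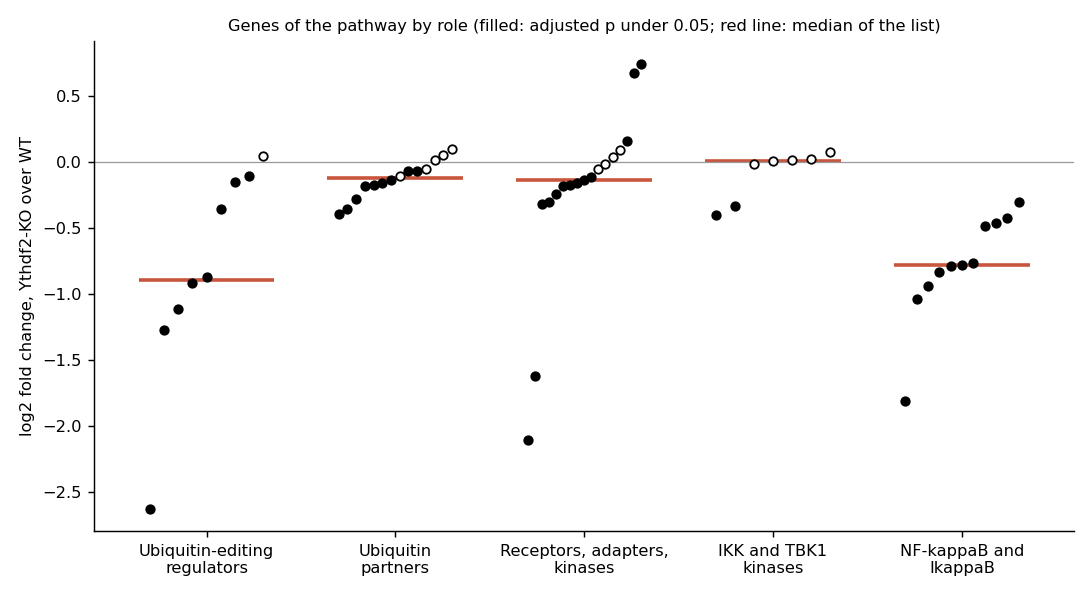
Log2 fold change of each gene (vertical axis) by list, filled where the adjusted p was under 0.05 and open otherwise, with the median of each list in red. Tnip3 is left out of the points but counted in the median; the medians are -0.89, -0.12, -0.13, 0.012 and -0.78 from left to right.

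Several of the 10 genes are also used by leukocytes, so markers of other cells were read beside them. The summed level of 12 leukocyte markers was 110.5 to 113 CPM in WT and 48.5 to 53.0 CPM in Ythdf2-KO. Of the 6 that could be tested, 4 fell and 2 rose, beside 25.8% and 24.1% of all tested genes. The sum follows mainly S100a8, which went from 48.2 ± 1.34 to 2.31 ± 0.234 CPM (SD, n = 3), and Cd14, from 23.8 ± 1.38 to 9.46 ± 0.860 CPM. Those that rose were Laptm5, from 8.84 ± 1.00 to 11.8 ± 0.444 CPM, and Lyz2, from 9.79 ± 0.401 to 11.9 ± 1.17 CPM. Also lower were the macrophage markers Cd68, from 20.4 ± 0.243 to 14.3 ± 1.28 CPM, and Adgre1, from 0.261 ± 0.124 to 0.0398 ± 0.0156 CPM. Other lineage markers were at or near 0: Cd3e, Itgam, Ms4a1 and Nkg7 stayed at or below 0.115 CPM, and the pan-leukocyte gene Ptprc at or below 0.0916 CPM except in Ythdf2-KO replicate 3, at 1.07 CPM. Without that library, 9 of the 10 genes were still lower in Ythdf2-KO. Melanocyte markers were present in both groups, at a summed 242 to 246 CPM in WT and 1441 to 1469 CPM in Ythdf2-KO. All 8 rose, where 24.1% of all tested genes did. Of 10 markers of fibroblasts, endothelium and epithelium, 7 could be tested; 3 rose and 3 fell, beside 24.1% and 25.8% of all tested genes. Their summed level, 3137 to 3234 CPM in WT and 3413 to 3466 CPM in Ythdf2-KO, is mostly Col6a3, which rose from 2384 ± 63.2 to 2971 ± 23.6 CPM. Dcn fell 11.7-fold, from 487 ± 8.10 to 41.5 ± 0.735 CPM, and Lum fell 2.56-fold, from 32.6 ± 0.887 to 12.7 ± 0.609 CPM. The endothelial marker Cdh5 fell 1.47-fold. These went in the direction of the 10 genes, whereas the fibroblast markers Pdgfra and Fap went the other way. Pdgfra rose from 269 ± 6.61 to 407 ± 6.64 CPM, and Fap, from a low level, from 0.42 ± 0.155 to 2.18 ± 0.224 CPM. Epcam and Krt18 were at or near 0. The part of these other shifts in the falls of the 10 genes was not tested.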

How the data were processed

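Polyadenylated RNA of 3 WT and 3 Ythdf2-KO samples was sequenced in paired-end mode. The submitters' processing notes name fastp 0.23.2, HISAT2 2.2.1, featureCounts 2.0.6 and the build GRCm39; for strand and multi-mapping reads, settings are not given in those sources. The deposited values are whole counts per gene symbol. Groups came from the genotype labels. In R 4.3.3, edgeR 4.0.16 kept genes by filterByExpr, scaled them by TMM (factors 0.981 to 1.02) and ran the quasi-likelihood test with robust dispersions and no covariate, adjusting p-values by Benjamini-Hochberg across the 17718 genes tested. Standard errors and 95% intervals follow from its test statistic. On simulated data the pipeline recovered 54% of 1.2-fold, 58% of 1.5-fold, 66% of 2-fold and 96% of 4-fold changes, with 9 false calls. A gene that was not called may therefore still differ. P-values measure the spread between these libraries, which may be technical. Alternatives were other scalings and filters, the replicate block, DESeq2 1.42.0, limma-voom (limma 3.58.1), an adjusted p under 0.01 and leaving out libraries; length by coding transcript was added after the data were seen. The genes and lists were chosen with earlier results of these data known; all 10 members are named, and of each list the called genes at least 2-fold apart, or else the 3 with the smallest adjusted p. Other genes were named after their values were seen. Transcripts and promoters come from GRCm38 annotation, joined by symbol. Python 3.11.15 and matplotlib 3.10.9 drew the figures.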

Additional observations from a re-analysis of the deposited data

How the results depend on the processing

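Under 16 alternatives, Tnfaip3, Tnip1, Traf1, Birc2, Birc3 and Ikbke kept their direction and their call, and Tnip3 did so under the 15 that tested it; the filter at a mean of 5 CPM removed it. Log2 fold changes ranged from -2.69 to -2.58 for Tnfaip3, -0.89 to -0.82 for Tnip1, -1.12 to -1.06 for Traf1, -0.41 to -0.28 for Birc2, -1.35 to -1.20 for Birc3 and -0.97 to -0.83 for Ikbke. Tnip2 was called under none. Cyld and Traf2 each lost their call under 3 alternatives. The members lower in Ythdf2-KO numbered 7 with upper-quartile scaling, 8 with no filter, with the 5 CPM filter or without replicate 3 of both genotypes, and 9 otherwise except without WT replicate 1 or WT replicate 3, where they were 8. Of the partners of A20 and CYLD, 3 were higher with upper-quartile scaling, 1 with no filter, 2 with the 5 CPM filter and 0 to 1 when libraries were left out, against none; of the IKK list, 1 was higher with upper-quartile scaling and 1 with the 5 CPM filter. Those partners lower numbered 9 and fell to 7 with RLE or upper-quartile scaling, no filter, the 5 CPM filter, an adjusted p under 0.01 or without Ythdf2-KO replicate 1, and were 8 or 9 otherwise; the receptors, adapters and kinases lower numbered 10, with 8 under upper-quartile scaling, the 5 CPM filter or without WT replicate 2 and 9 or 10 otherwise. The members' summed level in Ythdf2-KO, 229 CPM, was 230.1 CPM with RLE scaling, 234 CPM with upper-quartile scaling and 229.9 CPM with TMM factors that leave out mitochondrial genes and the 20 most abundant, all beyond an SD that is very small. No pairing by replicate number was seen: deviations of same-numbered libraries correlated at 0.011, -0.037 and -0.052 over genes. This cannot show whether such libraries were prepared together. With the replicate block 8541 genes were called in place of 8839, with 9 members lower. Levels near 3 counts, as for Tnip3 in Ythdf2-KO, are limited by depth.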
